A study of Mus musculus with 16 samples.

Results

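The genes described here are the nuclear genes of respiratory chain complexes II, III and IV and of ATP synthase, which is called complex V. They were taken from the deposited table by name: Sdha to Sdhd for complex II, the Uqcr genes and Cyc1 for complex III, the Cox4 to Cox8 genes for complex IV and the Atp5 genes for complex V. The rule gave 45 of the 16118 genes in the table, with 4 genes in complex II, 9 in complex III, 16 in complex IV and 16 in complex V. All 45 passed the filter on low values in every fit. Names that are not those of plain structural subunits stayed among the 45: Cox7a2l, which helps to join complexes into supercomplexes, and Atp5s, named as coupling factor B.

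RNA with poly(A) tails was sequenced from the atria and the ventricles of 8 adult male mice, littermates per the labels, in 4 groups of 4 libraries. Mice called idKO carried the genotype Meis1flox/flox; Meis2flox/flox with alpha-MHC-MerCreMer tg/wt. Mice called Control had the same floxed alleles and alpha-MHC-MerCreMer wt/wt, so they lacked the transgene. Adult hearts were taken 2 weeks after tamoxifen and the outflow tract was removed. MerCreMer is a Cre recombinase that tamoxifen activates, and the alpha-MHC promoter drives it in cardiomyocytes, so recombination is aimed at cardiomyocytes and not at the other cells of the heart. Any effect of the transgene itself is part of each idKO difference, since no control mouse carried it.

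Complex II oxidises succinate, complex III passes electrons to cytochrome c, complex IV passes them to oxygen, and complex V uses the proton gradient to make ATP. Cardiac muscle draws nearly all of its ATP from this chain and is rich in all 4 complexes. Several small subunits of complex IV have a form found in heart and skeletal muscle beside a form found in most tissues: Cox7a1 beside Cox7a2, Cox6a2 beside Cox6a1, and Cox8b beside Cox8a. The ring of complex V that turns as protons pass is made of 1 protein, subunit c, which Atp5g1, Atp5g2 and Atp5g3 encode with different import sequences.

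The promoter windows of Cox7a1 and Cox7a2, the muscle form and the widely expressed form of the same subunit, are shown because the plan named this pair. Each window runs from 250 bases before the gene start to 50 after it, taken from RefSeq on GRCm38.p6. The Cox7a1 window is chr7:30183921-30184220 on the plus strand, and the Cox7a2 window is chr9:79759804-79760103 on the minus strand. Capitals mark exact matches to any of 6 motifs searched on both strands, and only 1 match, to the MEIS motif TGACAG on the opposite strand, was found in the pair.
Cox7a1: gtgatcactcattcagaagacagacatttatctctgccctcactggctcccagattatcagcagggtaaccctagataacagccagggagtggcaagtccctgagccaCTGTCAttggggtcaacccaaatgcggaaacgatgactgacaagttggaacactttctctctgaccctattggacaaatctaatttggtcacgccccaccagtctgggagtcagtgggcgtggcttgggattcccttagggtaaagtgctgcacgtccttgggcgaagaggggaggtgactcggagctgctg
Cox7a2: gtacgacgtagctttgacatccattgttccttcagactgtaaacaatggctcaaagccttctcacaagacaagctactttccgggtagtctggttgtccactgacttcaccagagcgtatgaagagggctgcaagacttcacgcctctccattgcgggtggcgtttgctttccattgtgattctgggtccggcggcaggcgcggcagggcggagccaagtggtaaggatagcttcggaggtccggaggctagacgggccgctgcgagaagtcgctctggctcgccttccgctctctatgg

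That match in Cox7a1 starts 142 bases before the gene start. Windows were found for 33 of the 45 members, 36 windows in all. The MEIS motif TGACAG was in 25% of the members' windows and in 19.2% of all 32851 windows of the same length. Motifs of factors known for control of respiratory genes were that of NRF1 (GCGCA, any base, GCGC), in 27.8% of the members' windows and 4.6% of all windows, and CCGGAAG for GABPA, in 33.3% and 8.86%. AAGGTCA for ERRA was in 13.9% of the members' windows and 4.72% of all windows, AAGATGG for YY1 in 8.33% and 6.34%, and that of MEF2 (CTA, then 4 bases of any kind, then TAG) in 2.78% and 3.69%. A match describes letters and is not a bound site.

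Between 13.1 and 21.8 M (mega) reads per library fell in genes. Values are normalised CPM, reads scaled by the authors' effective library sizes, so they are not shares of a library. Meis2, a targeted gene, was lower in idKO than in control ventricles (log2 fold change -1.49, limma adjusted p = 2.0e-05). Meis1 was not called there (log2 fold change -0.24, limma adjusted p = 0.236), and neither gene was called in atria. The summed atrial muscle markers (Myl7, Myl4, Sln, Nppa) reached at least 32908 CPM in every atrium and at most 1664 CPM in any ventricle. The summed ventricular muscle markers (Myl2, Myl3, Myh7, Irx4) reached at most 1589 CPM in any atrium and at least 14773 CPM in every ventricle. Of these, Myl2 was at 111 CPM or less in every atrium and at 6769 CPM or more in every ventricle. Myh7 overlapped between chambers, at up to 1472 CPM in atria and down to 335 CPM in ventricles. RNA from the whole chamber was read, so fewer cells of a type and less RNA per cell cannot be told apart.

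In ventricles, 2 of the 45 members passed the test between idKO and control mice, Cox7a1 and Cox5b, and 43 did not. A negative log2 fold change was measured in 44 of 45 members, with values from -0.35 to 0.00 and a median of -0.16, beside -0.01 over the 13144 genes tested, of which 52.0% were negative. Both fell, and 0 members rose, at a limma adjusted p under 0.05, beside 1.5% of all tested genes called lower and 0.533% called higher. In 23 of 45 members every idKO ventricle lay below every control ventricle, beside 5.81% of all genes. At an unadjusted limma p under 0.05, 29 of 45 members were lower, beside 9.11% of all genes.

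Cox7a1, the muscle form of subunit 7a of complex IV (chromosome 7, 30184144 to 30186078, GRCm38), measured 743, 729, 822 and 881 CPM in idKO ventricles, against 930, 1107, 1032 and 973 CPM in control ventricles. The highest idKO ventricle lay below the lowest control ventricle. The group means were 794 ± 70.9 and 1011 ± 76.8 CPM in the same order (SD, n = 4 each), which puts idKO ventricles at 78.5% of control ventricles (log2 fold change -0.35 ± 0.07 SE, limma adjusted p = 0.028). Cox5b, a nuclear subunit on the matrix side of complex IV (chromosome 1, 36691449 to 36693681), measured 634, 582, 634 and 661 CPM in idKO ventricles, against 730, 764, 771 and 728 CPM in control ventricles. Its groups did not overlap either, and idKO ventricles stood at 83.9% of control ventricles (log2 fold change -0.25 ± 0.06 SE, limma adjusted p = 0.034). Both calls are near the threshold: over 16 alternative settings the Cox7a1 call was lost in 7, with adjusted p from 0.00075 to 0.088, and the Cox5b call in 10, with adjusted p from 0.0012 to 0.11. Of the 60-base stretches of Cox5b transcripts, 10.1% also occur in another annotated gene, and of Cox7a1 none do.

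The member with the smallest p of each other complex did not pass the test. Sdha, the flavoprotein of complex II that oxidises succinate, measured 1991, 1795, 2001 and 2106 CPM in idKO ventricles, against 2169, 2236, 2329 and 2265 CPM in control ventricles (log2 fold change -0.19 ± 0.06 SE, limma adjusted p = 0.16). Uqcrc1, a core protein of complex III, measured 1296, 1239, 1326 and 1373 CPM in idKO ventricles, against 1486, 1588, 1507 and 1515 CPM in control ventricles (log2 fold change -0.22 ± 0.06 SE, limma adjusted p = 0.064). Atp5h, subunit d of the stalk of complex V, measured 955, 919, 977 and 1006 CPM in idKO ventricles, against 1055, 1133, 1136 and 1091 CPM in control ventricles (log2 fold change -0.19 ± 0.05 SE, limma adjusted p = 0.098). All idKO ventricles were below all control ventricles in each of these 3 genes. Of Atp5h, 17.2% of 60-base stretches occur in another gene, so its reads are less certain than those of Sdha and Uqcrc1, which share none.

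The 4 complexes differed little from one another. The median log2 fold change in ventricles was -0.16 in complex II, -0.14 in complex III, -0.15 in complex IV and -0.16 in complex V. Members whose groups did not overlap, idKO being lower, numbered 2 of 4, 4 of 9, 8 of 16 and 9 of 16 in that order of complexes, beside 5.81% of all genes. The members moved together within a library, so these counts are not separate measurements. Of the 45 members, 5 lay above their group mean in idKO ventricle 2 and 40 in idKO ventricle 4. Summed over its genes, complex II came to 4095 ± 237 CPM in idKO ventricles and 4614 ± 90.3 CPM in control ventricles (SD, n = 4 each), or 88.7% of control. The sums of complexes III, IV and V were 90.5%, 87.8% and 88.7% of control in idKO ventricles, and in each of the 4 sums the idKO ventricles lay below the control ventricles.

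**Figure D1:**
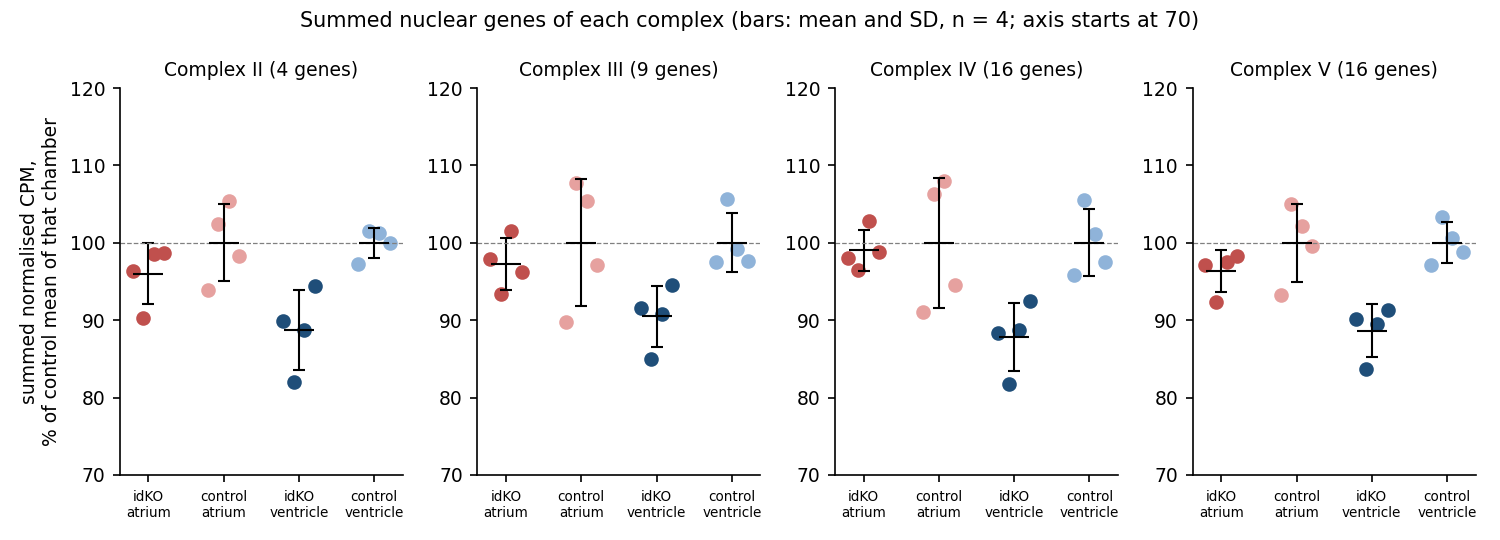
Summed normalised CPM of the nuclear genes of each complex, per library, as a percent of the control mean of the same chamber (vertical axis, from 70). Points are libraries and bars are mean and SD, n = 4. The idKO ventricles average 88.7% (II), 90.5% (III), 87.8% (IV) and 88.7% (V) with no overlap with control ventricles, while the atrial groups overlap.

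The log2 fold changes of 6 members lay nearest to 0 in ventricles, from -0.05 to 0.00. These were Cox4i2, a form of subunit 4 known from lung, Atp5s, Cox7a2l, Uqcrh, the hinge protein of complex III, Cox8a, the widely expressed form of subunit 8, and Atp5g2. Cox7a2l measured 320, 307, 313 and 320 CPM in idKO ventricles, against 323, 338, 317 and 299 CPM in control ventricles, so the groups overlapped (log2 fold change -0.02 ± 0.05 SE, limma adjusted p = 0.93). Uqcrh was spread over 590 to 687 CPM in idKO ventricles and over 615 to 669 CPM in control ventricles.

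The count of calls varied with the tool. DESeq2 on the recovered reads called 11 members lower, beside 2.6% of all genes: Cox7a1, Cox5b, Uqcrc1, Atp5a1, Atp5h, Atp5b, Cox5a, Cyc1, Cox6b1, Cox6a2 and Atp5g3. The edgeR quasi-likelihood test called 1, beside 1.39%. Leaving out 1 ventricle at a time gave 0 to 3 calls, namely 0 with control mouse 2, 3 or 4 or idKO mouse 1, 2 or 3 left out, 1 with control mouse 1 left out, and 3 with idKO mouse 4 left out. Over all genes, those called lower were also most numerous with idKO mouse 4 left out. With any other ventricle left out they numbered 97 to 170, beside 197 with none left out. The counts of members therefore changed along with how many genes passed in all. When each library was rescaled to the sum of its values, the median of all genes moved to 0.09, the median of the members to -0.05, and 36 of 45 were negative. A factor per library shifts all genes nearly alike, so the distance between the members and the other genes is nearly fixed by construction.

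**Figure D2:**
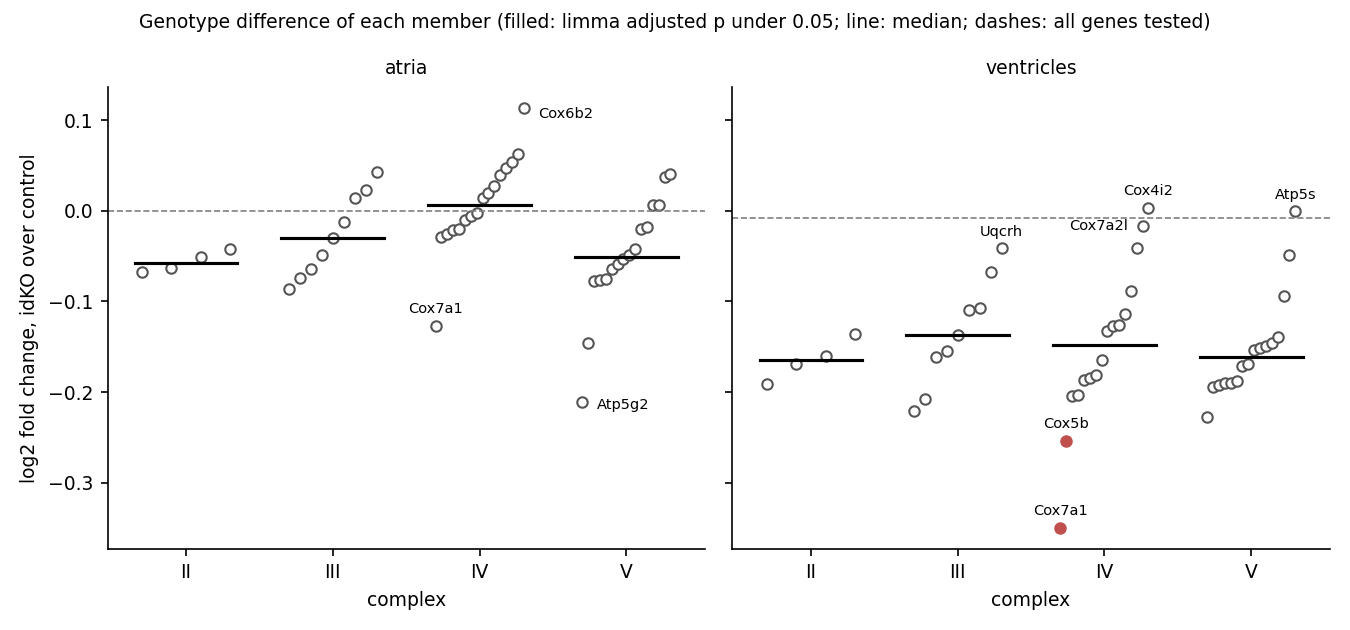
Log2 fold change of each of the 45 members, idKO over control, in atria (left) and ventricles (right), by complex. Filled points have a limma adjusted p under 0.05, the black line is the median of the complex and the dashed line the median of all genes tested. In ventricles all points but Cox4i2 and Atp5s lie below the dashed line, and Cox7a1 and Cox5b are filled. In atria no point is filled.

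Other markers moved with genotype in the same ventricles. Nppa, an atrial natriuretic peptide gene that stressed ventricles also express, measured 478 to 1635 CPM in idKO ventricles, against 159 to 218 CPM in control ventricles (log2 fold change 2.45, limma adjusted p = 0.00032). It was the only gene called among the 4 atrial muscle markers, of which 2 log2 fold changes were negative and 2 positive (median 0.01). Of 4 ventricular muscle markers 1 was called lower: Irx4, a ventricular transcription factor, at 20.96 to 31.1 CPM in idKO ventricles and 35.9 to 42.7 CPM in control ventricles (limma adjusted p = 0.0099). Myl2, the ventricular light chain, was at 6769 to 7813 CPM in idKO ventricles and 8177 to 8857 CPM in control ventricles, without overlap (limma adjusted p = 0.15). Myh7 of the same list went the other way, at 682, 1367, 2832 and 2050 CPM in idKO ventricles. Control ventricles measured 519, 2186, 443 and 335 CPM of Myh7, so the groups overlapped (log2 fold change 1.25, not called). In that list 2 of 4 log2 fold changes were negative and 2 positive. That list summed to 14773 to 18172 CPM in idKO ventricles and 15769 to 17842 CPM in control ventricles. The 5 markers of muscle in either chamber summed to 70280 to 80515 CPM in idKO ventricles and 77035 to 82753 CPM in control ventricles, with 1 of 5 called lower: Ryr2, the calcium release channel, at 1253 to 1680 CPM in idKO ventricles and 2090 to 2505 CPM in control ventricles. The 5 fibroblast markers summed to 815 to 1229 CPM in idKO ventricles and 776 to 861 CPM in control ventricles, with 0 of 5 called. The 4 macrophage markers summed to 124 to 145 CPM in idKO ventricles and 113 to 120 CPM in control ventricles, with 0 of 4 called. The part of these markers in the members' difference was not tested.

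In atria, no member was called, beside 0.0207% of all genes called in either direction. None of the 45 reached an unadjusted limma p under 0.05, beside 4.61% of all genes, and edgeR and DESeq2 also called 0 members, beside 0.0207% and 0.0826% of all genes. Negative log2 fold changes numbered 30 of 45, with a median of -0.02, beside 0.00 over all 14523 genes tested, and the values ran from -0.21 to 0.11. Cox7a1 measured 338, 354, 388 and 378 CPM in idKO atria, against 366, 454, 416 and 361 CPM in control atria (log2 fold change -0.13 ± 0.08 SE, limma adjusted p = 0.97). Cox5b measured 398, 358, 396 and 361 CPM in idKO atria, against 339, 434, 415 and 353 CPM in control atria (log2 fold change -0.02 ± 0.08 SE, limma adjusted p = 0.997). The groups overlapped for both genes. The 4 complex sums stood between 96.0% and 99.0% of control in idKO atria and overlapped with control.

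The difference between the chambers in the genotype effect was tested directly. No member was called, beside 0.296% of all genes, and 5 of 45 reached an unadjusted limma p under 0.05, beside 6.54% of all genes. The effect in atria minus that in ventricles was positive in 43 of 45 members, with a median of 0.13, beside 0.01 over all genes. Cox7a1 had a difference of 0.22 ± 0.11 SE (limma adjusted p = 0.79) and Cox5b one of 0.23 ± 0.10 SE (limma adjusted p = 0.71). Cox7b, another small subunit of complex IV, had the smallest p of the members, with a difference of 0.24 ± 0.09 SE (limma adjusted p = 0.62). For no single member was a genotype effect shown to differ between chambers.

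The chambers themselves differed far more than the genotypes. In control mice, 41 of 45 members were lower in atria than in ventricles and 0 were higher, beside 28.7% of all genes called lower and 28.2% called higher. In 41 members the groups did not overlap, every control atrium being below every control ventricle, beside 25.9% of all genes. The median log2 difference of the members was -0.99, beside 0.02 over the 14871 genes tested. The 4 members not called were Cox6a1, Cox8a and Cox6b2 of complex IV and Atp5g2 of complex V. In idKO mice, 41 members were also lower in atria and 0 were higher, beside 27.1% and 26.8% of all genes, with a median of -0.84. With the mouse as a block, 2 members were called higher in idKO atria in the fixed form, Cox8a (limma adjusted p = 0.028) and Cox6a1 (limma adjusted p = 0.049). That form called 4267 of 14871 genes higher. In the random form 1 was called higher, Cox8a (limma adjusted p = 0.038), and 42 lower, Atp5g2 among them (limma adjusted p = 0.042). Over all 14871 genes the random form called 4361 higher and 4325 lower. Summed over its genes, each complex in control atria came to 47.0% (II), 46.2% (III), 50.2% (IV) and 53.8% (V) of control ventricles, and in idKO atria to 50.9%, 49.6%, 56.6% and 58.4% of idKO ventricles in the same order.

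These chamber differences are tied to the authors' scaling. Rescaled to the sum of each library, the median of all genes moved to 0.52 in control mice and that of the members to -0.42. Of the members 37 rather than 41 were called lower and 3 higher, beside 1386 of 14871 genes called lower and 9881 higher. As a share of reads, the 45 members took 2.33% in idKO atria and 2.99% in idKO ventricles, and 2.37% in control atria and 3.13% in control ventricles. The 6 mitochondrially encoded genes of complexes III to V showed a median of -1.46 in control mice, and reads of all mitochondrially encoded genes made up 17.2% of reads in control atria and 30.9% in control ventricles.

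**Figure D3:**
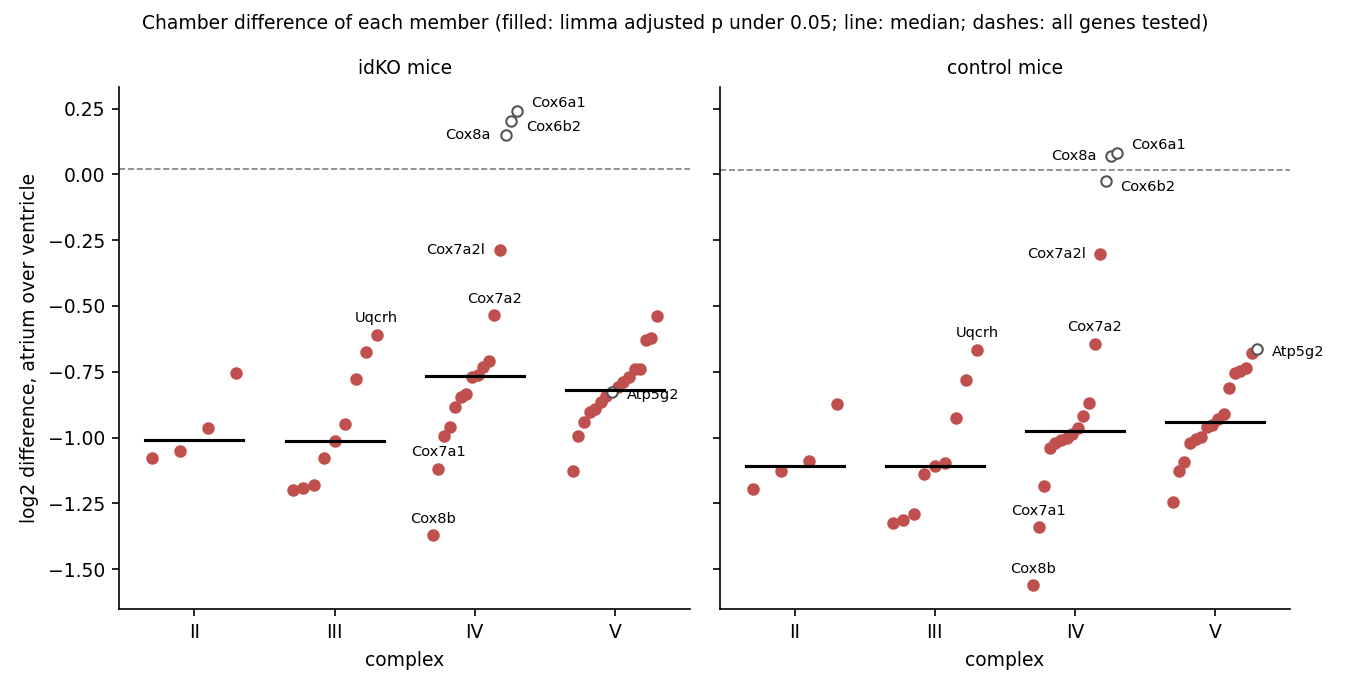
Log2 difference of each member, atrium over ventricle, in idKO mice (left) and control mice (right), by complex. Filled points have a limma adjusted p under 0.05, the black line is the median of the complex and the dashed line that of all genes tested. Most members lie near -1, Cox8b lies lowest in both panels, Cox7a2 and Cox7a2l lie nearer to 0, and Cox6a1, Cox8a, Cox6b2 and Atp5g2 are open.

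In control mice the widest chamber differences were in Cox8b and Cox7a1 of complex IV, followed by genes of complex III, while in idKO mice Cox8b was followed by Uqcrq, Cyc1, Uqcrc1 and Atp5g3 before Cox7a1. Cyc1, cytochrome c1 of complex III, had a log2 difference of -1.32 ± 0.07 SE in control mice (limma adjusted p = 1.0e-11), and Uqcrc1 one of -1.31 ± 0.06 SE (limma adjusted p = 1.8e-12). That of Cox8b was the largest in these mice, at -1.56 ± 0.08 SE (limma adjusted p = 4.4e-12), and Cox7a1 came next at -1.34 ± 0.08 SE (limma adjusted p = 6.2e-11). Within complex IV the differences ran from that of Cox8b up to 0.08 for Cox6a1, a wider span than in complex II, where they ran from -1.19 to -0.87.

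The isoform pairs divided along that span. Cox8b measured 203, 240, 265 and 207 CPM in control atria, against 637, 719, 704 and 638 CPM in control ventricles. Its widely expressed partner Cox8a measured 120, 127, 140 and 122 CPM in control atria, against 119, 136, 120 and 109 CPM in control ventricles. So on the authors' scaling Cox8b separated the chambers completely, while Cox8a overlapped (log2 difference 0.07 ± 0.07 SE, limma adjusted p = 0.40). Values summed on average to 1.06 M CPM per library in control atria and 1.57 M CPM in control ventricles. Rescaled to the library sums, Cox8a was higher in every control atrium than in every control ventricle.

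Cox6a2 measured 656, 749, 789 and 722 CPM in control atria, against 1421, 1498, 1508 and 1476 CPM in control ventricles (log2 difference -1.02 ± 0.06 SE, limma adjusted p = 1.2e-10). Cox6a1 measured 77.2, 90.5, 120 and 80.4 CPM in control atria, against 80.9, 96.2, 82.5 and 83.1 CPM in control ventricles (log2 difference 0.08 ± 0.12 SE, limma adjusted p = 0.58). The value of 120 CPM came from the atrium of control mouse 3, and without that mouse the log2 difference of Cox6a1 was -0.07. Rescaled to the library sums, Cox6a1 too was higher in every control atrium than in every control ventricle.

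Cox7a2 was lower in atria, but less so than Cox7a1. It measured 228, 230, 258 and 204 CPM in control atria, against 370, 375, 372 and 320 CPM in control ventricles (log2 difference -0.64 ± 0.07 SE, limma adjusted p = 3.5e-07). Cox7a2l measured 245, 257, 276 and 257 CPM in control atria, against 323, 338, 317 and 299 CPM in control ventricles (log2 difference -0.30 ± 0.05 SE, limma adjusted p = 4.2e-05), and rescaled to the library sum its difference turned to 0.26. In idKO mice the log2 differences between atria and ventricles were -1.37 for Cox8b, -1.12 for Cox7a1, -0.84 for Cox6a2, -0.54 for Cox7a2 and -0.29 for Cox7a2l, each called, and 0.24 for Cox6a1 and 0.15 for Cox8a, neither called (limma adjusted p = 0.094 and 0.073) without the mouse as a block. As given above, the fixed block called both of these and the random block Cox8a.

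**Figure D4:**
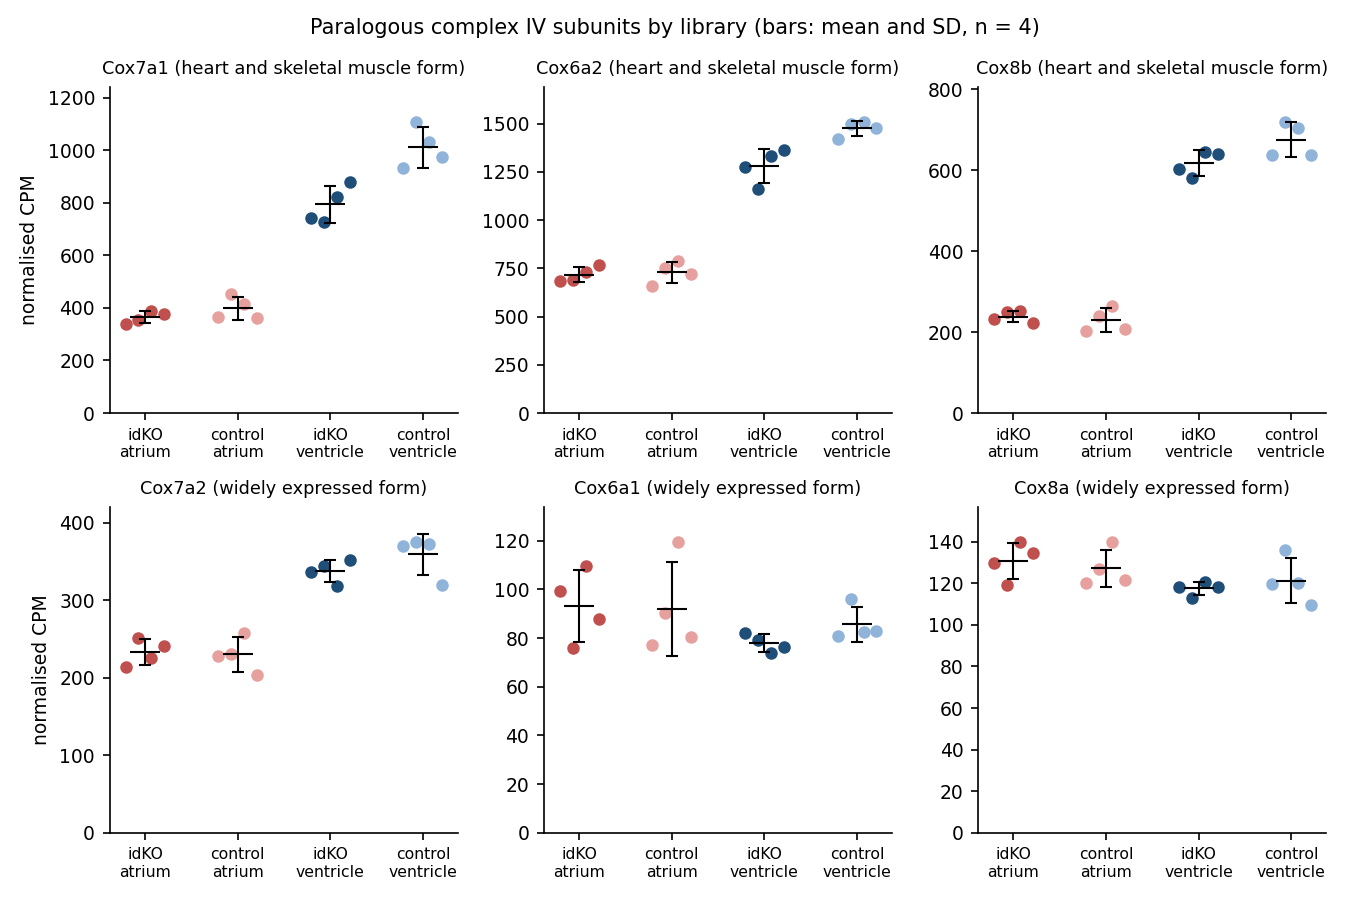
Normalised CPM per library of the heart and skeletal muscle form (top row) and the widely expressed form (bottom row) of subunits 7a, 6a and 8 of complex IV. Points are libraries and bars are mean and SD, n = 4. The muscle forms in atria lie well below those in ventricles, Cox7a2 less so, and the chambers overlap for Cox6a1 and Cox8a.

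Ratios of 2 genes within a library do not depend on the scaling of libraries. Over 25 ratio tests by exact two-sided permutation of 4 against 4, the smallest p that can arise is 0.029 and the smallest adjusted p was 0.12, so no ratio passed the threshold in this form, in which a few ratios alone could not pass. The log2 ratio of Cox8b over Cox8a averaged 0.84 ± 0.09 in control atria and 2.48 ± 0.08 in control ventricles (SD, n = 4 each), a difference of -1.64 (exact permutation p = 0.029). That of Cox6a2 over Cox6a1 averaged 3.01 ± 0.20 in control atria and 4.11 ± 0.10 in control ventricles, a difference of -1.10 (exact permutation p = 0.029). That of Cox7a1 over Cox7a2 averaged 0.79 ± 0.14 in control atria and 1.49 ± 0.12 in control ventricles, a difference of -0.70 (exact permutation p = 0.029). The chambers did not overlap in any of these 3 ratios.

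Atrium and ventricle came from the same animals, so the ratios were also compared within each of the 8 mice of both genotypes. By exact sign flips over mice, whose smallest p is 0.0078, 6 of 9 ratios differed between chambers at an adjusted p of 0.033. Cox8b over Cox8a (-1.58), Cox6a2 over Cox6a1 (-1.09) and Cox7a1 over Cox7a2 (-0.64) were lower in the atrium of 8 of 8 mice. Cox7a2l over Cox7a2 (0.30), Atp5g1 over Atp5g3 (0.25) and Cox6b2 over Cox6b1 (0.95) were higher in the atrium of 8 of 8 mice. Cox6b2, a form known from testis, was at 3.19 CPM or less in every library, so its ratio rests on few reads. It missed the 1 CPM level set for a ratio in idKO atrium 4 (0.999 CPM) and idKO ventricle 3 (0.946 CPM), which the sign flips include. Cox6b2 itself hardly differed between control chambers (log2 difference -0.02 ± 0.24 SE, limma adjusted p = 0.94), while Cox6b1 was lower in control atria (-0.92 ± 0.07 SE).

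Per kilobase of joined exons, the muscle form was the greater part of each pair in both chambers. Cox7a1 made up 73.4% of the Cox7a1 and Cox7a2 level in idKO atria, 75.3% in control atria, 80.5% in idKO ventricles and 83.2% in control ventricles. Cox6a2 made up 88.8%, 89.2%, 94.4% and 94.7% of its pair in those groups, in the same order. Cox8b made up 75.8%, 75.5%, 90.0% and 90.5% of its pair. Levels per kilobase depend on the transcript length used, and with the length of the principal transcript these shares were lower by at most a few points.

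The ratios were also set between genotypes in 16 of the 25 tests, and since a few ratios alone could not pass there, their values are given as such. In ventricles the log2 ratio of Cox7a1 over Cox7a2 averaged 1.23 ± 0.14 in idKO mice and 1.49 ± 0.12 in control mice (SD, n = 4 each), a difference of -0.26 (exact permutation p = 0.057, adjusted 0.20 over 25 tests), and the idKO ratios reached 1.37 while the control ratios began at 1.33. Cox6a2 over Cox6a1 differed by -0.07 (exact permutation p = 0.49) and Cox8b over Cox8a by -0.09 (exact permutation p = 0.17). In atria the ratio of Cox7a1 over Cox7a2 averaged 0.65 ± 0.12 in idKO mice and 0.79 ± 0.14 in control mice, a difference of -0.15 (exact permutation p = 0.14). In ventricles Cox6a2 had a log2 fold change of -0.20 ± 0.06 SE (limma adjusted p = 0.12), with 1273, 1163, 1331 and 1363 CPM in idKO mice against 1421, 1498, 1508 and 1476 CPM in control mice, which did not overlap. Cox8b had one of -0.13 ± 0.06 SE (limma adjusted p = 0.36), with 601, 581, 646 and 641 CPM in idKO mice against 637, 719, 704 and 638 CPM in control mice, which overlapped. The partners Cox7a2 (-0.09 ± 0.06 SE), Cox6a1 (-0.13 ± 0.07 SE) and Cox8a (-0.04 ± 0.07 SE) had limma adjusted p of 0.57, 0.42 and 0.84 in that order.

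**Figure D5:**
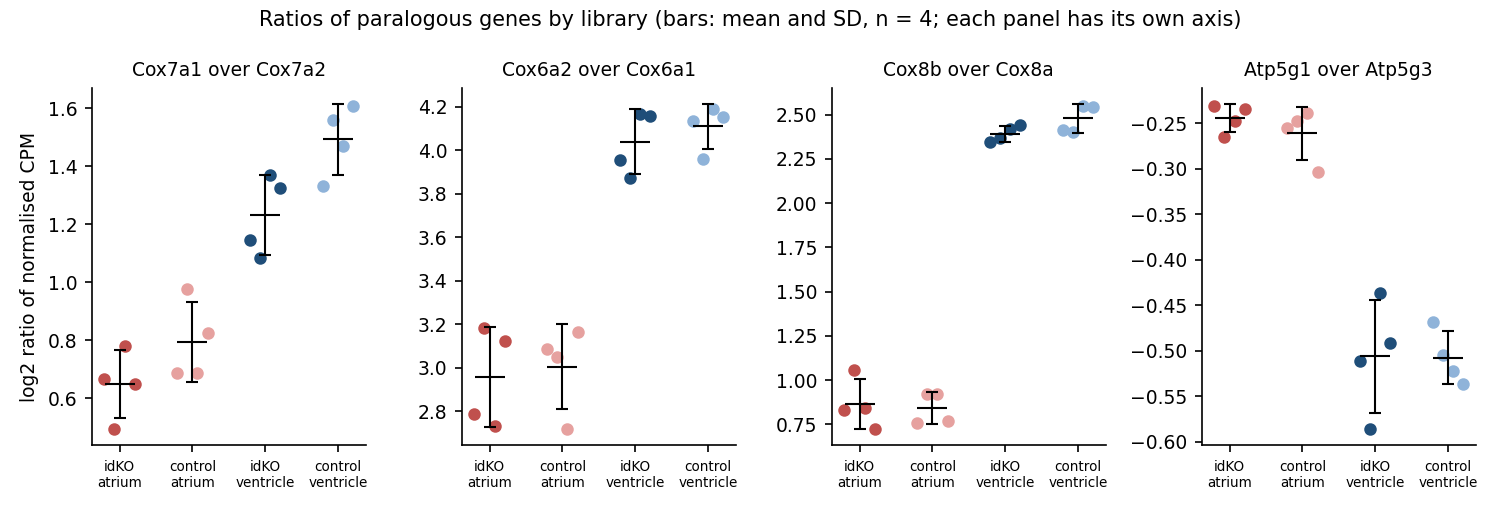
Log2 ratio of normalised CPM of 2 related genes in each library, for 3 complex IV pairs and for Atp5g1 over Atp5g3. Points are libraries, bars are mean and SD with n = 4, and each panel has its own axis. The 3 complex IV ratios lie lower in atria than in ventricles, Atp5g1 over Atp5g3 lies higher in atria, and the genotypes overlap within a chamber.

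Per kilobase of joined exons, Atp5g1 made up 27.3% of the Atp5g1 and Atp5g3 level in idKO atria, 27.0% in control atria, 23.8% in idKO ventricles and 23.8% in control ventricles. With the length of the principal transcript these shares were lower, at 18.5%, 18.3%, 15.9% and 15.9% in the same order. Atp5g3 measured 720, 872, 784 and 750 CPM in control atria, against 1757, 1988, 1843 and 1813 CPM in control ventricles (log2 difference -1.24 ± 0.06 SE, limma adjusted p = 8.6e-12). Atp5g1 measured 603, 735, 665 and 608 CPM in control atria, against 1270, 1401, 1284 and 1251 CPM in control ventricles (log2 difference -1.0 ± 0.07 SE, limma adjusted p = 6.4e-10). Atp5g2 was variable, with 22.8, 26.8, 8.15 and 21.2 CPM in control atria, against 27.1, 38.1, 40.1 and 17.8 CPM in control ventricles (log2 difference -0.67 ± 0.36 SE, limma adjusted p = 0.12). With 1 control mouse left out this difference ran from -0.97 to -0.16, the smallest in size being that without control mouse 3. Of Atp5g2, 37.3% of 60-base stretches occur in other genes, so reads of Atp5g2 could be divided wrongly.

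Cox4i1, the usual form of subunit 4 of complex IV, had a log2 difference of -1.04 ± 0.06 SE between control atria and control ventricles (limma adjusted p = 9.6e-11). Its partner Cox4i2 stood at 2.84 ± 0.97 CPM in control atria and 6.51 ± 0.79 CPM in control ventricles (SD, n = 4 each). Per kilobase Cox4i2 was at most 1.17% of the pair in every library, and their ratio overlapped between chambers (exact permutation p = 0.66).

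Markers of other cells and of muscle also differed between chambers. In control mice 5 of 5 fibroblast markers were higher in atria (median log2 difference 0.87), with sums of 1084 to 1560 CPM in control atria and 776 to 861 CPM in control ventricles. Of the 5 markers of muscle in either chamber 3 were lower in control atria (median -0.79), with sums of 48818 to 57539 CPM in control atria and 77035 to 82753 CPM in control ventricles. Among these, Mb, the oxygen-binding protein of muscle, had a log2 difference of -1.71. Of 4 endothelial markers 1 was higher and 2 were lower, of 5 smooth muscle and pericyte markers 2 were higher and 1 was lower, and of 4 macrophage markers 1 was higher. Some members are also used in fat, and 4 of 5 fat markers were higher and 1 lower in atria, and the 5 summed to 445 to 865 CPM in idKO atria, 309 to 749 CPM in control atria, 724 to 834 CPM in idKO ventricles and 775 to 840 CPM in control ventricles. Adipoq, made by fat cells, was at 11.0 to 73.1 CPM in atria and below 1 CPM in every ventricle, and Lep was at 0 reads in control ventricles. Of 4 brown fat markers in the table, 2 were higher and 1 lower in control atria, with sums of 117 to 271 CPM in control atria and 150 to 180 CPM in control ventricles. Ucp1, made by brown fat, was at 0.33 to 101 CPM in atria, highest in control mouse 3 and next in idKO mouse 3, and near 0 in every ventricle. Cox6a1 was highest in the same pair of atria, at 120 and 110 CPM. The 4 skeletal muscle markers in the table summed to 789 to 992 CPM in control atria and 2804 to 3397 CPM in control ventricles, nearly all of it Ckm, which heart muscle also makes. Mybpc1 was at 0 reads in every atrium, while Actn3 was called higher in atria, at 2.44 to 6.10 CPM in control atria and 0.12 to 0.55 CPM in control ventricles (log2 difference 1.87, limma adjusted p = 2.3e-06). The part of these markers in the chamber differences was not tested.

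Lists of related genes outside the 45 held 1 call each in ventricles, beside 1.5% of all genes called lower and 0.533% called higher, so for lists of 36 genes 1 call is near the share over all genes. Of 36 tested assembly factors, 1 fell: Cox10, which makes the precursor of heme A for complex IV (67.7 to 74.6 CPM in idKO against 80.3 to 94.2 CPM in control ventricles, log2 fold change -0.33 ± 0.07 SE, limma adjusted p = 0.027). Of 11 tested partners, 1 rose: Atpif1, the inhibitor of complex V, with 194, 185, 174 and 144 CPM in idKO ventricles against 132, 136, 137 and 118 CPM in control ventricles (log2 fold change 0.40 ± 0.09 SE, limma adjusted p = 0.032). Of 18 regulators of mitochondrial genes, 1 fell: Perm1, a muscle coactivator (368 to 454 CPM in idKO against 488 to 528 CPM in control ventricles, log2 fold change -0.30 ± 0.07 SE, limma adjusted p = 0.036). Of 36 nuclear genes of complex I, 1 fell: Ndufs6, an accessory subunit (305 to 325 CPM in idKO against 369 to 412 CPM in control ventricles, log2 fold change -0.26 ± 0.05 SE, limma adjusted p = 0.027). The medians of these lists in ventricles were -0.07, -0.14, -0.05 and -0.19 in that order, and each call was lost in 8 to 11 of 16 alternative settings. Negative log2 fold changes numbered 28 of 36, 9 of 11, 11 of 18 and 36 of 36 in the same order. Of the complex I genes, 25 of 36 were lower at an unadjusted limma p under 0.05, beside 9.11% of all genes. In 19 of 36 every idKO ventricle lay below every control ventricle, beside 5.81% of all genes. None of these lists had a call in atria. Of the 6 mitochondrially encoded genes of complexes III to V, 0 were called in ventricles and 1 had an unadjusted limma p under 0.05, and all 6 were negative with a median of -0.20.

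In the control chambers, 35 of 37 assembly factors, 11 of 11 partners and 36 of 36 complex I genes were lower in atria, with medians of -0.71, -0.91 and -0.96. Of the 18 regulators, 11 were lower and 1 was higher. Over all genes 28.7% were called lower and 28.2% higher. Among 3566 genes with a mean of at least 50 CPM, those with a pattern close to that of Cox7a1 over the 16 libraries included D10Jhu81e, Ndufa4, Ndufb9 and Ndufa10, with Pearson's r of 0.996 to 0.993, and of the members Atp5h came first at 0.992. The 16 libraries share 2 chambers and 8 mice, so these r values describe mainly the chamber difference. Per kilobase of joined exons in control ventricles, the highest members were Cox6a2 at 2170, Atp5a1 at 2001, Cox7a1 at 1889, Cox8b at 1874 and Atp5b at 1757 CPM per kilobase. With the length of the principal transcript Atp5b came first.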

How the data were processed

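The members and lists were chosen with earlier results of these data known. Per the submitters' processing notes, the authors used cutadapt and RSEM 1.3.1 with GRCm38; per the labels' protocols, libraries from 20 ng of RNA gave single reads of 60 bases. How libraries were scaled, whether strand was used and which low genes were dropped is not given in the sources used here. A normalised signal was deposited: 100% of its values came out as whole reads plus 0.5 over an effective library size (tolerance 0.01), giving 13.1 to 21.8 M reads per library.

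The planned design allowed for raw counts. Since the table holds scaled values, its planned limma form was used (limma 3.58.1, R 4.3.3): log2(value + 1), trended prior, two-sided, Benjamini-Hochberg over all genes with at least 4 libraries at 1 CPM, called at 0.05. This scale understates the change of low genes. Each chamber was fitted alone, and the interaction and chamber contrasts on 16 libraries. The test was checked on simulated data. Isoform ratios were compared by exact permutation. Per-library values are given for isoform pairs, called members and the member with the smallest p of each complex in ventricles. Sequence shared with other genes was counted in 60-base stretches of GENCODE transcripts.

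The mouse numbers pair atrium and ventricle, which came from 1 animal: their deviations correlated at 0.175 to 0.296 over 12236 genes, and 8 of 8 mice matched themselves best. Replicates differed by more than sampling noise (chi-square per gene 8.08 to 16.8). Alternatives were pseudocounts 0.5 and 5, no filter, 2 rescalings, a joint fit, edgeR 4.0.16 and DESeq2 1.42.0 on the recovered reads, the mouse as a block, each library left out, and, added after the data were seen, the principal transcript's length. A gene among those closest in pattern to Cox7a1 is not reported here.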

Additional observations from a re-analysis of the deposited data

Results flagged for a closer look

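Of 128 groups of 4 libraries examined, 5 had a highest or lowest library set far apart from the other 3, and chance gives such a gap in about 1 in 20 groups. In control atria, replicate 3 had the lowest log2 ratio of Atp5g2 over Atp5g3, -6.59, and the highest log2 ratio of Atp5g1 over Atp5g2, 6.35, both with Atp5g2 at 8.15 CPM. In idKO ventricles, Atp5g1 was lowest in replicate 2, at 1027 CPM. In control ventricles, Cox7a2 was lowest in replicate 4, at 320 CPM, and Cox6a1 was highest in replicate 2, at 96.2 CPM.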

How the results depend on the processing

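The scaling of libraries moved several values. Rescaled to library sums, 3 members were called higher in atria in control mice (median -0.42) and 3 in idKO mice (median -0.36), 9 members had a negative difference of genotype effects (median 0.047), and 1 was called lower in idKO ventricles (median -0.052). The log2 fold change in ventricles turned to 0.015 for Cox7a2, 0.087 for Cox7a2l and 0.062 for Cox8a, and the chamber difference to 0.26 (control) and 0.19 (idKO) for Cox7a2l and to 0.33 (control) for Cox6b2. Rescaled over genes other than the mitochondrially encoded ones, 2 members were called higher in atria in control mice (median -0.68) and 2 in idKO mice (median -0.58), the ventricular fold changes were 0.047 for Cox7a2l and 0.022 for Cox8a, and the control chamber differences 0.0015 for Cox7a2l and 0.17 for Cox6b2. Calls over all genes between control chambers were 4201 higher and 4267 lower as deposited, 9881 and 1386 on library sums, and 7237 and 2295 without mitochondrially encoded genes. In ventricles they were 70 higher and 197 lower in idKO mice as deposited, 149 and 108 on library sums, and 108 and 142 without mitochondrially encoded genes. In idKO mice the chamber calls were 3983 higher and 4024 lower as deposited, and 9253 and 1546 or 6686 and 2360 under these rescalings.

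Members called lower in idKO ventricles numbered 11 with DESeq2 (195 genes higher and 342 lower in all). They numbered 1 each with edgeR, the joint fit and no filter (183, 241 and 165 genes lower in all, in that order). With edgeR 1 member was called higher in idKO atria than in idKO ventricles, beside 4135 of all genes. With that tool 4 members had a negative difference of genotype effects, and the control chamber difference of Cox6b2 was 0.075 (0.053 with DESeq2). Adding 1 to each value turned the chamber ratio of Cox4i2 over Cox4i1 to 0.037. With the mouse as a replicate block, 2 members (fixed effect) or 1 (random effect) were called higher in idKO atria, beside 4267 or 4361 of all genes. The genes called for the difference of genotype effects were then 79 higher and 23 lower or 54 and 17, beside 40 and 4 without the block. Paired sign flips took 6 chamber ratios past the threshold (-0.64, -1.09, -1.58, 0.95, 0.30 and 0.25). The flips used 8 mice of both genotypes, while the permutation of chamber ratios used control mice only. The smallest possible p was therefore 0.0078 for the flips and 0.029 for the permutation.

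Leaving out 1 library or mouse gave 0 to 1 members called higher in idKO atria than idKO ventricles, 0 to 3 called lower in idKO ventricles, and a median in atria of -0.069 to 0.0045, positive without control atrium 3. As given above, the number of all genes called lower in idKO ventricles also changed with the library left out. Fold changes ran from -0.047 to 0.011 (Cox7a2l, ventricles), -0.089 to 0.015 (Cox8a, ventricles) and -0.078 to 0.040 (Cox5b, atria), and chamber differences from -0.067 to 0.14 (Cox6a1, control), -0.14 to 0.089 (Cox6b2, control) and -0.099 to 0.42 (Cox6b2, idKO). Ratio differences between genotypes that changed sign in atria ran from -0.14 to 0.026 (Cox6a2 over Cox6a1), -0.041 to 0.070 (Cox8b over Cox8a), -0.18 to 0.32 (Cox4i2 over Cox4i1), -0.047 to 0.032 (Cox7a2l over Cox7a2), -0.53 to 0.16 (Atp5g2 over Atp5g3) and -0.15 to 0.56 (Atp5g1 over Atp5g2). Values that kept their sign but moved widely included the chamber differences of Atp5g2 (-0.97 to -0.16 in control mice, -1.20 to -0.36 in idKO mice) and Cox8a (0.021 to 0.13, control), and Cox7a1 in atria (-0.17 to -0.063). In ventricles the ratio differences ran from -0.022 to 0.028 (Atp5g1 over Atp5g3), -0.087 to 0.30 (Atp5g2 over Atp5g3) and -0.30 to 0.079 (Atp5g1 over Atp5g2), and between control chambers from -0.43 to 0.068 (Cox4i2 over Cox4i1). The cause of these changes was not tested.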

Other observations

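The values here were chosen after they had been seen. In idKO ventricles 1 to 4, Cox7a1 measured 743, 729, 822 and 881 CPM and Nppa 1357, 1635, 989 and 478 CPM. Reads counted to Esr1, whose ligand-binding part is in the MerCreMer transgene, came to 3169, 2292, 3293 and 3641 CPM in those ventricles. In the idKO atria of the same mice Esr1 came to 170, 98.7, 154 and 322 CPM. The ventricle lowest in Cox7a1, number 2, was also the highest in Nppa and the lowest in Esr1. It was low in most members and not in Cox7a1 alone: 5 of 45 lay above their idKO ventricle mean there (median log2 deviation -0.089). With 4 libraries no correlation was computed.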
